A study of Mus musculus with 4 samples.

Results

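The genes examined here encode the G1/S cyclins (Ccnd1, Ccnd2, Ccnd3, Ccne1, Ccne2 and Ccna2), the kinases that these cyclins activate (Cdk2, Cdk4 and Cdk6) and the phosphatase Cdc25a. Their E2F1 peaks were those overlapping a window from 1000 bp upstream to 500 bp downstream of any transcript start of these 10 genes in the GENCODE M1 annotation of mm9. By this rule, 5 of the 4523 deposited E2F1 peaks belonged to 4 of the 10 genes, with 1 peak each at Ccne1, Ccna2 and Cdc25a and 2 at Ccne2. No peak was found at Ccnd1, Ccnd2, Ccnd3, Cdk2, Cdk4 or Cdk6. The ChIP-seq samples were 2 from serum ESCs and 2 from 2i ESCs, labelled as biological replicates. Serum ESCs are mouse embryonic stem cells grown with fetal calf serum and LIF, and 2i ESCs are grown in serum-free Ndiff 227 medium with LIF, the MEK inhibitor PD0325901 and the GSK3 inhibitor CHIR99021. Both had been kept in their medium for more than 20 days. Which ESC line was used for ChIP-seq was not given in the sources used here, and no input or control antibody sample was analysed. Occupancy of a single factor does not measure expression, so that the ESC label could not be checked against marker genes.

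Entry into S-phase is driven by cyclin-dependent kinases that phosphorylate the RB family proteins. D-type cyclins with CDK4 or CDK6 start this phosphorylation, and cyclin E with CDK2 extends it, which frees the E2F transcription factors to activate S-phase genes. The genes of the E-type cyclins, cyclin A2 and CDC25A are textbook E2F targets, while D-type cyclin genes are known chiefly as targets of growth factor and ERK signaling. The comparison of serum with 2i asks whether E2F1 occupancy of these genes differs between the conditions.

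The sequences under the peaks are shown first, because the E2F family binds a short GC-rich element. It was searched as TTCCCGC or TTGGCGC on either strand. In the 300 bases around the peak centre, 3 of the 5 peaks held at least 1 such word, at Ccne1 and in both Ccne2 peaks, against 15.8% of all 4509 peaks on assembled chromosomes. The upstream Ccne2 peak held both words, separated by 3 bases, at -299 and -289 relative to the outermost coding transcript start. At least 2 words in these 300 bases were found in 1.18% of all peaks. This stretch of mm9 is printed on the plus strand, which is the coding strand of Ccne2, with the words in capitals:
Ccne2 chr4:11118179-11118235: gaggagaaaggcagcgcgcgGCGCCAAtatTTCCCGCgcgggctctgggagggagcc

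At the other peaks the words stood singly, and they are printed on the coding strand of each gene with 10 bases either side, the word in capitals. Ccne1 had a word at -293 relative to its outermost start and another 152 bp downstream of it. The downstream Ccne2 peak had 1 word, 414 bp into the transcribed region. The word in the Cdc25a peak lay at the far end, 505 bp downstream of the outermost start and 205 bp from the peak centre:
Ccne1 chr7:38892833-38892859: tcaggcgctcGCGCCAAgattctcccg
Ccne1 chr7:38892388-38892414: cgcctcctgcTTCCCGCtcgccgtcgg
Ccne2 chr4:11118902-11118928: atatattgagTTGGCGCcggcgccagc
Cdc25a chr9:109778575-109778601: aagatgctgtTTGGCGCgtcagctgct

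The Ccna2 peak held neither word over its whole length. Over whole peaks, 4 of the 5 held a word, against 25.7% of all peaks. In the central 200 bases none of the 5 did, against 453 of all 4509 peaks. Along the plus strand from the peak centre, words lay at -125 and 320 bp in the 724 bp Ccne1 peak. They lay at 128 and 138 bp in the 628 bp upstream Ccne2 peak. The single word was at 138 bp in the 479 bp downstream Ccne2 peak and at 205 bp in the 420 bp Cdc25a peak. With only 5 peaks, no common position within the peak can be read from these distances. Each of the 5 peaks held a GC box (GGGCGG) in the central 300 bases, as did 86.9% of all peaks. The cell-cycle homology element TTTGAA was in none of them, against 2.62% of all peaks. GC content over these 300 bases ranged from 68.3% at Ccna2 to 80.3% at Ccne1, around the median of 76.7% over all peaks. A matching word is a description of the sequence and does not locate a binding site.

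Cdc25a also has the palindrome TTGGCGCCAA, which reads TTGGCGC on both strands, 66 bases before its outermost start. This element lay outside the called peak, 147 bp from its edge. The promoters of Cdc25a and Cdk2 are printed from RefSeq (build GRCm38.p6, 250 bases before to 50 after the start, coding strand), because both hold E2F words while only Cdc25a had a peak. At Cdk2, TTCCCGC was found on the opposite strand 140 and 10 bases before the start. Each sequence matched mm9 exactly once, at chr9:109777833-109778132 for Cdc25a and at chr10:128142058-128142357 for Cdk2:
Cdc25a: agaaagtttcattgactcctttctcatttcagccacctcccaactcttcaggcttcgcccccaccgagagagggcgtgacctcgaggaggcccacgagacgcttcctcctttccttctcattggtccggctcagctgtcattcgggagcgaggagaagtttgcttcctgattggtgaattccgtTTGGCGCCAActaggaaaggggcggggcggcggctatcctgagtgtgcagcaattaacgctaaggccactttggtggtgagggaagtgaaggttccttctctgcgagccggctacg
Cdk2: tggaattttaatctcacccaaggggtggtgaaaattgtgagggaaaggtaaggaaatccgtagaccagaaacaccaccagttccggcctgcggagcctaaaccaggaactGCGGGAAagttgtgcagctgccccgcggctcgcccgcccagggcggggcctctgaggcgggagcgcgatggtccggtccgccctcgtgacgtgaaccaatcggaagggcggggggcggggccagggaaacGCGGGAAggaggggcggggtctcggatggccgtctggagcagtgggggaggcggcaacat

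RefSeq promoters were matched for 6 of the 10 genes and not for Ccnd1, Ccnd2, Ccne2 and Ccna2. Neither promoter of Ccnd3 held an E2F word, nor did those of Ccne1, Cdk4 and Cdk6, against 6.81% of all 32851 RefSeq promoters with one. In Ccne1 the words thus lay outside these 300 bases and inside the peak. Of the 6 matched genes, an E2F word stood in this window at 1 of 2 with a peak (Cdc25a) and at 1 of 4 without (Cdk2).

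The 4 bound genes differed in where E2F1 sat. At Ccne1 (chr7:38892164-38892888 as deposited), the peak spanned the gene start, from 335 bp upstream to 389 bp downstream of the outermost coding start. The upstream Ccne2 peak (chr4:11117760-11118388) covered none of the annotated starts and lay from -741 to -113 bp relative to the outermost coding start. The downstream Ccne2 peak (chr4:11118538-11119017) began 150 bp further on and covered the starts of 4 of the 7 annotated transcripts. Of the transcribed bases under the Ccne1 peak, 213 were exonic and all of these UTR, while 261 bases of the downstream Ccne2 peak were exonic and none coding. The peaks at Ccna2 (chr3:36470561-36471048) and Cdc25a (chr9:109778173-109778593) lay entirely inside the transcribed region, from 24 to 511 bp and from 90 to 510 bp downstream of the outermost start. Both ran through the 5′UTR into the first coding bases, 185 bases of coding sequence at Ccna2 and 100 at Cdc25a. They also covered annotated starts further in, those of 2 of the 4 Ccna2 transcripts and 1 of the 2 Cdc25a transcripts. No start of another gene shared any of these peaks.

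**Figure D1:**
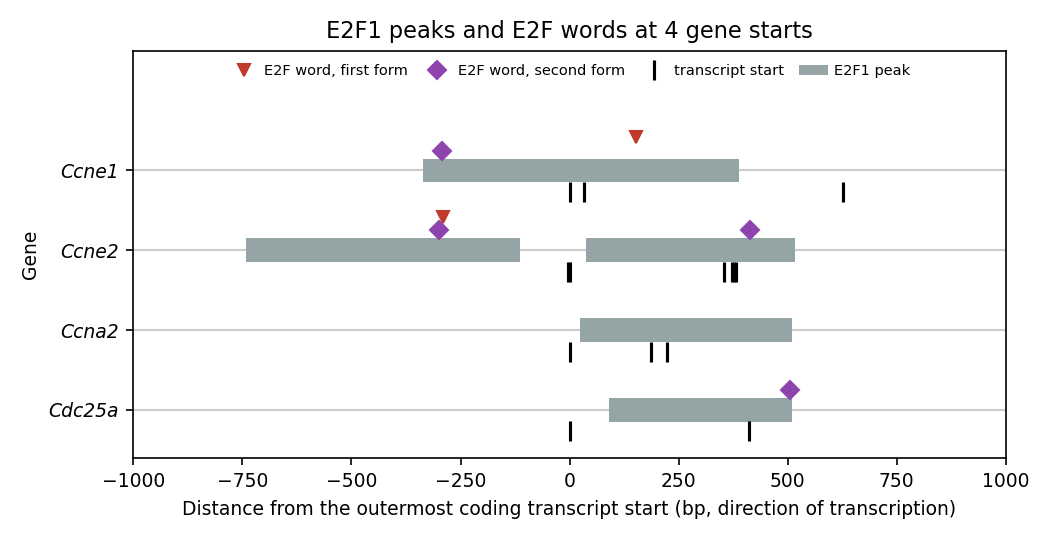
Positions of the 5 E2F1 peaks (grey bars) relative to the outermost coding transcript start of each gene, in bp along the direction of transcription, with all annotated starts as ticks and E2F words inside the peaks as triangles (TTCCCGC) or diamonds (TTGGCGC). The Ccne1 peak spans the start, Ccne2 has a peak either side, and the Ccna2 and Cdc25a peaks begin 24 and 90 bp downstream of it.

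The deposited values are normalized counts, reads in a peak divided by a size factor per sample. The low values of each sample were whole multiples of 1 step, within 0.1 step for 99.95% of 18092 values, which gave 248878 to 710519 reads in peaks per sample, fewest in serum replicate 1. These read numbers are estimates, since the smallest value was a single step only in serum replicate 1, and they describe depth alone. The 5 peaks held between 29 and 475 reads in a single sample. Intervals on read numbers cover counting error only.

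Cyclin E1, with CDK2, drives the G1/S transition, and its gene carried the strongest of these peaks. The normalized count at Ccne1 was 375 and 341 in serum replicates 1 and 2 and 266 and 202 in 2i replicates 1 and 2. Both serum values were above both 2i values. In bulk chromatin, more cells with the site occupied and more E2F1 per occupied site cannot be told apart. Serum averaged 358 ± 23.6 against 234 ± 44.9 for 2i (SD, n = 2 per condition), a 1.53-fold difference. On the log2(normalized count + 1) scale the difference was 0.62 (standard error 0.26, 95% interval 0.06 to 1.19, limma). Its unadjusted limma p of 0.0341 became 0.238 after Benjamini-Hochberg adjustment over all peaks, so the difference did not pass the adjusted test. The unadjusted p was also above 0.05 after rescaling to the same total (0.0641, limma), after cyclic loess (0.145) and without a variance trend (0.0809). With a replicate left out, the limma p stayed under 0.05 only without 2i replicate 1 (0.0201), and was 0.136 without serum replicate 1, 0.0737 without serum replicate 2 and 0.1795 without 2i replicate 2.

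Cyclin E2 is the second E-type cyclin. At its upstream peak the normalized count was 153 and 175 in serum and 125 and 119 in 2i. The serum values again lay above the 2i values, with means of 164 ± 15.6 and 122 ± 4.59 (SD, n = 2 per condition). The log2 difference of 0.42 (95% interval -0.12 to 0.97, limma) had an adjusted p of 0.394 from limma. At the downstream peak the counts were 99.3 and 103 in serum and 97.4 and 85.5 in 2i. The groups did not overlap, but the lower serum value was close to the higher 2i value, and the log2 difference was 0.15 (95% interval -0.44 to 0.73, limma adjusted p = 0.828). Both peaks lie at a single promoter and share their chromatin samples, so that they are not independent measurements of Ccne2.

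Cyclin A2 activates CDK2 in S-phase and CDK1 later. At Ccna2 the normalized count was 118 and 86.7 in serum and 91.8 and 88.7 in 2i. The groups overlapped, as serum replicate 2 was the lowest of the 4 samples, and the log2 difference was 0.17 (95% interval -0.45 to 0.78, limma adjusted p = 0.815). Without serum replicate 1 it became -0.056, and without serum replicate 2 it became 0.39.

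CDC25A removes inhibitory phosphates from CDK2, and its gene had the weakest of these peaks. The normalized count at Cdc25a was 50.5 in both serum replicates, and 29.7 and 41.7 in 2i. Both serum values were higher than both 2i values, but the 2i replicates differed by 1.41-fold. The log2 difference of 0.51 had the widest interval of the 5 (-0.30 to 1.32, limma adjusted p = 0.508). It was 0.27 without 2i replicate 1 and 0.75 without 2i replicate 2. Serum replicate 1 held 29 reads here, with an exact 95% Poisson interval of 19.4 to 41.6.

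**Figure D2:**
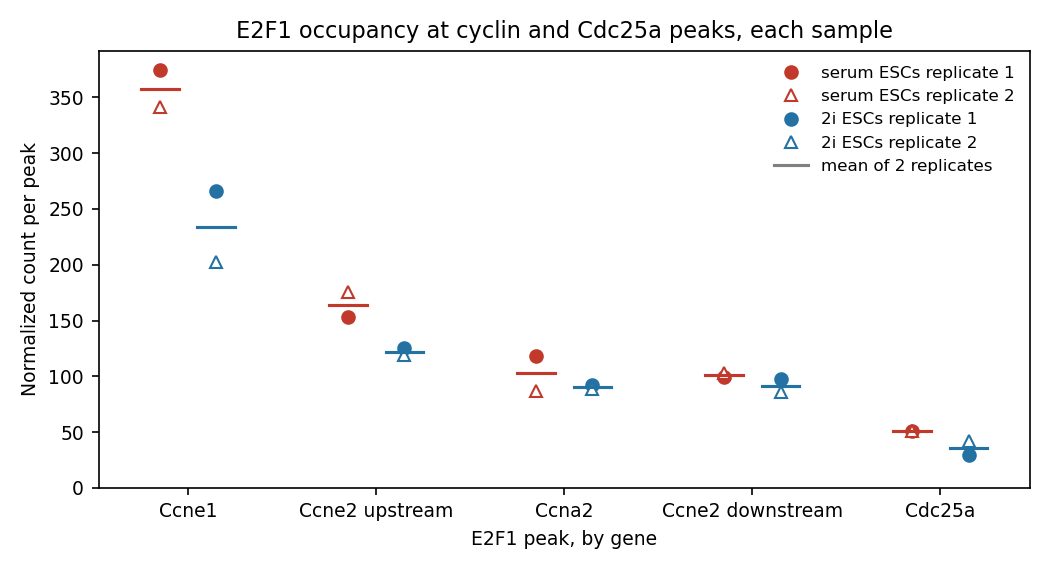
Normalized count of each E2F1 peak (linear axis from 0) in the 2 serum ESC samples (red) and the 2 2i ESC samples (blue), with circles for replicate 1, open triangles for replicate 2 and a line at the mean. The serum points lie above the 2i points at all peaks but Ccna2, where serum replicate 2 (86.7) lies below both 2i values.

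Each of the 5 log2 differences was above 0 under the 3 other scalings run as well, from 0.15 to 0.62 with a median of 0.42 as deposited, while the median over all 4523 peaks was -0.03 and 47.8% of them were above 0. Without 2i replicate 1 the median of the 5 was 0.27, and without serum replicate 1 only 4 of them were above 0. The call used here, after the study's thresholds, asks for a change of more than 2-fold up or down (log2 past 1) and for an unadjusted limma p under 0.05. None of the 5 was called, against 10.3% of all peaks, and 1, Ccne1, had an unadjusted limma p under 0.05. For higher values in serum, such a p was reached by 9.48% of all peaks. The share called fell with peak strength, from 17.2% of the weakest 1131 peaks and 11.1% of the next 1131, which include Cdc25a, to 6.46% and 6.45% in the stronger groups that hold the other 4 peaks. None of the 5 passed after adjustment in limma, against 1.46% of all peaks. Both serum values exceeded both 2i values at 4 of the 5 peaks, against 24.9% of all peaks. The limma intervals of the upstream and downstream Ccne2 peaks and of Ccna2 lay below a 2-fold difference, while those of Ccne1 and Cdc25a reached beyond it. None of the 5 intervals reached a 2-fold lower value in serum.

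Differences moved with peak strength over the whole data set, and this touches the comparison. Among the 1131 peaks with the highest mean, which included Ccne1 and the upstream Ccne2 peak, the median log2 difference was 0.11, and 34.8% of peaks had both serum values above both 2i values. Among the 1131 weakest peaks the median was -0.26. Cyclic loess normalization, which removes such a trend, gave 0.40 at Ccne1 and 0.35 at the upstream Ccne2 peak. With 2 replicates per condition an exact two-sided permutation test of a single peak cannot go below 0.333, so the p-values lean on the variance estimate that limma pools over peaks.

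**Figure D3:**
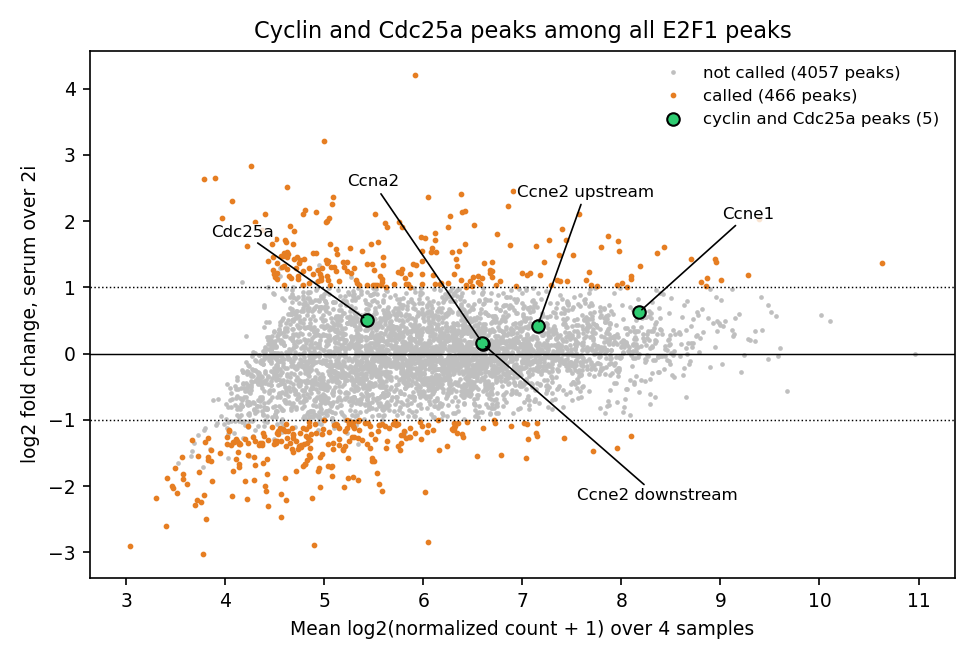
Log2 fold change (serum over 2i) of all 4523 E2F1 peaks against their mean log2(normalized count + 1) over the 4 samples, with called peaks in orange and dotted lines at a 2-fold change. The 5 cyclin and Cdc25a peaks (green) all lie above 0 and below 1, from 0.15 to 0.62.

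Elsewhere, peak strength was ranked by the mean normalized count, with no correction for peak length. Here levels were compared between genes as the mean normalized count per kb of peak. Ccne1 had the highest, 409 per kb, at rank 146 of all 4523 peaks. The upstream Ccne2 peak followed with 228 per kb, the downstream one with 201 and Ccna2 with 198, against a median of 126 per kb over all peaks. Cdc25a had 103 per kb, below that median. Over the 4 samples, Ccne1 ran from 279.5 to 517 per kb and did not overlap the upstream Ccne2 peak, whose highest value was 279.3 in serum replicate 2. Both Ccne2 peaks and Ccna2 overlapped each other in range. Cdc25a stood apart at the low end, from 70.6 to 120 per kb.

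For the strongest of the peaks, Ccne1, the promoter peaks of other genes with the nearest levels in the 4 samples were sought by Euclidean distance on the log2(normalized count + 1) scale. They were at Cacna1a (distance 0.26), at the shared start of Gm17705 and Prrc2a (0.36) and at Nap1l1 (0.36). At Cacna1a the normalized counts were 399 and 381 in serum and 291 and 221 in 2i.

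The 6 genes without a peak encode the D-type cyclins and the kinases. Cdk6, the partner of D-type cyclins, had the closest peak, which ended 2313 bp upstream of its first start at chr5:3341277-3341580. Its normalized count was 17.4 and 27.6 in serum and 28.0 and 26.1 in 2i, and the groups overlapped (log2 difference -0.29, limma adjusted p = 0.803). Cdk4, the other D-type cyclin kinase, had a peak 3269 bp upstream of its start, which lay at the start of another gene, March9 (81.9 and 75.3 in serum, 59.3 and 79.3 in 2i). For Ccnd3 the nearest peak was 36183 bp away, for Ccnd1 76314 bp, for Cdk2 155823 bp and for Ccnd2 246302 bp. The peak nearest to Ccnd1 lay at the start of Fgf4, and the one nearest to Ccnd2, at no gene start, was called higher in serum (log2 difference 1.10, limma adjusted p = 0.183), a call lost without serum replicate 1 or 2i replicate 2. By role, E2F1 peaks were thus found at both E-type cyclin genes, Ccna2 and Cdc25a, and at no D-type cyclin or kinase gene of the list. Ccna1, the other A-type cyclin gene and part of a further list below, had no peak. Whether peaks differ by role was not tested. Among all 22238 protein-coding genes, 19.0% had a peak by the same rule. A gene without a peak in this table may still have bound E2F1 below the level at which peaks were called in both replicates of a condition, and the weakest peak in the table had a mean normalized count of 11.8.

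The rest of the pathway was read from 3 further gene lists. Over all 4523 peaks, 10.3% were called and 47.8% had a log2 difference above 0, and 19.0% of protein-coding genes had a peak. Of 13 genes for pocket proteins, E2Fs and their DP partners, 10 had a peak, with a median log2 difference of 0.31, all of them above 0 as deposited and 9 of them, all but E2f1, after rescaling to the same total or cyclic loess. E2f2, an activator E2F, was the only one of the 10 called, near the share over all peaks (61.0 and 53.4 in serum, 25.2 and 19.8 in 2i, log2 difference 1.31, limma adjusted p = 0.121). Rb1, encoding RB and named here after its values were seen, stayed under the fold threshold with a smaller p (172 and 176 in serum, 77.3 and 101 in 2i, log2 difference 0.97, limma adjusted p = 0.0963). Without 2i replicate 2 it was called too (1.16), giving 2 calls in the list, and without 2i replicate 1 only 8 of the 10 were above 0. In a limma fit with a replicate block the adjusted p was 0.0491 at E2f2 and 0.0229 at Rb1. In the other settings with all samples it stayed above 0.05 at both genes. The strongest peaks of this list were at Tfdp1, which encodes the DP1 partner, and E2f1 itself, with log2 differences of 0.29 and 0.04 as deposited. After cyclic loess they were 0.0036 and -0.16. Tfdp1 was at 0.62 without serum replicate 1 and at -0.03 without serum replicate 2. Of 7 CDK inhibitor genes, Cdkn1b, Cdkn2a and Cdkn2c had a peak, none of them with a log2 difference above 0 as deposited. Cdkn2c, encoding the CDK4 and CDK6 inhibitor p18, had 20.9 and 21.0 in serum and 44.2 and 37.6 in 2i, with both serum values below both 2i values (log2 difference -0.93, limma adjusted p = 0.266). It was not called as deposited but was called lower in serum after rescaling to the same total (-1.02). Cdkn2a, whose products include p16, an inhibitor of CDK4 and CDK6, was called lower in serum (17.4 and 20.0 in serum, 75.6 and 67.8 in 2i, log2 difference -1.88, limma adjusted p = 0.0378). Its limma adjusted p was 0.0623 without a variance trend and 0.0693 to 0.221 with a replicate left out, while the call stayed. Which transcript start of Cdkn2a the peak lies at was not examined, so these values are not tied to p16. Cdkn1b, encoding the CDK2 inhibitor p27, had the strongest peak of the list and a log2 difference of -0.05, which turned to 0.21 without serum replicate 1. Of 16 other cyclin, CDK and CDK-modifying genes, 3 had a peak and none was called by limma, also at an unadjusted p under 0.05. These were Wee1 (log2 difference 0.13, or -0.17 without serum replicate 1 and 0.43 without serum replicate 2), Fbxw7 (0.03, or -0.05 at the same total and 0.42 after cyclic loess) and Pkmyt1 (-0.34, or 0.11 after cyclic loess, -0.03 without 2i replicate 1 and -0.64 without 2i replicate 2), which encode a kinase that inhibits CDKs, a ubiquitin ligase subunit that degrades cyclin E and a second CDK-inhibiting kinase. Differences between the lists were not tested.

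**Figure D4:**
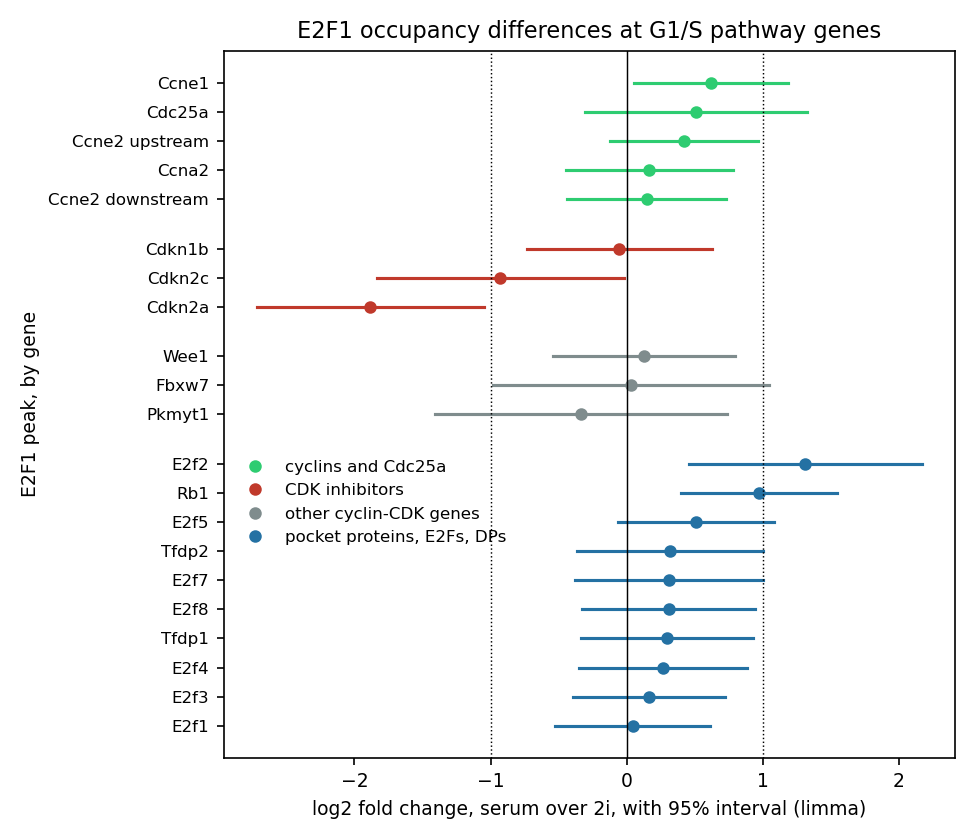
Log2 fold change (serum over 2i) with its 95% limma interval for the peaks at cyclin genes and Cdc25a (green), CDK inhibitors (red), other cyclin-CDK genes (grey) and pocket protein, E2F and DP genes (blue), with dotted lines at a 2-fold change. The cyclin and Cdc25a points lie between 0.15 and 0.62, and the intervals of Cdkn2a (point at -1.88) and E2f2 (1.31) lie on opposite sides of 0. Those of Ccne1, Rb1 and Cdkn2c also leave out 0.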

How the data were processed

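E2F1 ChIP-seq was analysed in 2 serum and 2 2i ESC samples. By their methods, the authors mapped the reads with BWA to the mm9 genome, took out duplicates and blacklisted regions, called macs2 peaks per sample, kept peaks shared by replicates, merged both conditions and counted reads with bedtools multicov. The deposited signal per peak is this count divided by a size factor per sample. Sites shared by the replicates of neither condition are missing. Grouping followed the sample titles. A total of 9 serum values, deposited as exactly 2, were used as they stand.

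R 4.3.3 with limma 3.58.1 fitted all 4523 peaks as log2(normalized count + 1), using a variance trend, no low-value filter and Benjamini-Hochberg adjustment, and the test was tried on simulated data. The fold and p thresholds follow the study, where adjustment of the p is not stated. Count models were not used, because the deposited values are normalized and the read numbers behind them are only estimated from their spacing. Sequences came from NCBIM37 (mm9) and RefSeq, with peak coordinates as deposited (whether starts count from 0 or 1 is not stated). Python 3.11.15 (numpy 2.4.6, pandas 2.3.3, matplotlib 3.10.9) ran the motif searches and drew the figures. Named were every member gene, the 3 peaks nearest in level to the strongest one and, of the other lists, each called gene and the 2 strongest peaks. Pkmyt1 and Cdkn2c complete the named sets of 3, and Rb1 was named after its values were seen. The genes and lists were chosen with earlier results of these data known. Alternatives were other pseudocounts, a minimum mean, other scalings, a replicate block, each replicate left out, other windows around gene starts and other lengths for the motif search.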

Additional observations from a re-analysis of the deposited data

How the results depend on the processing

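None of the 5 peaks at Ccne1, Ccne2, Ccna2 and Cdc25a was called under any limma setting run. Leaving out each replicate in turn, where the lone sample of a condition is assumed to vary like the others, gave 0 called peaks each time. The log2 difference at Ccne1 ran from 0.40 (cyclic loess) to 0.62 and from 0.43 to 0.82 with a replicate left out, and its adjusted p from 0.146 to 0.480 over the settings with all samples. At Ccna2 it ran from -0.056, without serum replicate 1, to 0.39. The other 3 peaks stayed above 0, from 0.05 at the downstream Ccne2 peak to 0.75 at Cdc25a, which ran from 0.27 to 0.75. The fit with the replicate block (correlation of same-numbered deviations 0.0483) called 0 of the 5 and 504 of all peaks, against 466 without it. Rescaling to the same total shifted the median of all peaks by -0.09 and the call split to 178 higher in serum and 313 in 2i from 218 and 248, and cyclic loess to 232 and 166. With the minimum mean of 50 it was 121 and 67. Only the minimum mean of 50, which leaves 2731 peaks and drops Cdc25a, moved the count of all called peaks beyond 1.5-fold, to 188. The weak peaks that it drops were called more often than strong ones. With a replicate left out that count ranged from 378 to 674. The number of peaks at these genes stayed 5 with 1000 or 500 bp either side of a start or coding transcripts alone. Peaks with an E2F word were 3 in 300 bases, 0 in 200 bases and 4 over the whole peak. Rescaling by the median of ratios was chosen after seeing the data, and changed no call of the 5. The planned edgeR, TMM and DESeq2 alternatives were not run, because the read numbers are inferred from the spacing of the values and were not taken as recovered counts. The same settings, applied to the other named genes after seeing the data, turned several differences near 0, and gained a call at Cdkn2c at the same total (-1.02). E2f1 went to -0.046 at the same total, -0.159 after cyclic loess and -0.181 without 2i replicate 1. Fbxw7 went to -0.053 at the same total and -0.052 without serum replicate 1, but to 0.416 after cyclic loess, and Pkmyt1 to 0.107 after cyclic loess. Without serum replicate 1, Wee1 was at -0.174, Cdkn1b at 0.215 and the peak nearest to Cdk6 at 0.032. With a replicate left out, Cdkn1b ranged from -0.323 to 0.215, E2f1 from -0.181 to 0.27, Fbxw7 from -0.052 to 0.118, Pkmyt1 from -0.64 to -0.03 and the peak nearest to Cdk6 from -0.605 to 0.032. Cdkn1b was at 0.094 without 2i replicate 1, and Tfdp1 at -0.032 without serum replicate 2. The call at Cdkn2a and that at E2f2 held in each of the 11 settings that tested them. The call at the peak nearest to Ccnd2 was also lost with a pseudocount of 8. Cdc25a held the fewest reads of the 5 peaks in each sample, down to 29 in serum replicate 1.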
